A study of Mus musculus with 8 samples.

Results

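Gk encodes glycerol kinase, and its messenger RNA was followed in mouse hearts after aortic banding and after sham surgery. It was 1 gene of the 15 that could be named on the array, each through a probe printed as 20 spots with a RefSeq accession, out of 60915 noncontrol probes in all. The probe carries the accession NM_008194.3, 1 of 5 curated transcripts that RefSeq lists for Gk. Gk was chosen by measured values, namely its level in the heart, its difference between banded and sham hearts and a course opposite to that of most of the other named genes, so these values are given as a description, without a test.

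Glycerol kinase uses ATP to turn glycerol into glycerol 3-phosphate, the step that lets free glycerol re-enter triglyceride and phospholipid synthesis or, through glycerol 3-phosphate dehydrogenases, the glycolytic and mitochondrial pathways. The gene is X-linked. The enzyme is abundant in liver, kidney and brown fat and scarce in white fat and striated muscle. In the heart glycerol enters cells mainly through the channel Aqp7. In mice, Gk2 is a testis-expressed copy of the gene, and cross-reaction of the probe with it was not tested.

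RNA came from hearts of male wild-type C57BL/6J mice, which entered the study at 8 to 10 weeks and 24 to 26 g, taken 4 weeks after the operation. In 4 banded mice a suture tied the descending aorta against a 26-gauge needle, which narrows the vessel and raises the pressure load on the heart, and 4 sham mice had a similar operation. Each mouse has its own number in the labels and 1 one-colour (Cy3) array, hybridised with 1 μg of labelled cRNA made by random priming along the transcript. Banding was not checked here by heart size or by marker genes: heart muscle markers, markers of other cell types and the other genes of glycerol metabolism, such as Gpd1, Gpd2 and Aqp7, are not named in the files used here and were not analysed.

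By the place codes in the file headers the 8 arrays filled 2 slide rows of 4 places, and not all of them behaved as separate samples. Over 15117 bright probes, log2 differences between arrays were set against the noise of repeated spots. They spread 0.969 times as widely as that noise between banded 1 and sham 2, 0.990 times between sham 3 and sham 4, 1.17 times between banded 4 and sham 1, and 1.34 times between banded 2 and banded 3. Between all other arrays they spread 2.61 to 5.26 times as widely. Close arrays of 1 surgery group, with a ratio under 1.5, were therefore averaged and counted as 1 sample, which left 3 banded and 3 sham samples. With the spots of Gk, which scatter most, left out of the noise, the 4 ratios became 1.28, 1.31, 1.56 and 1.77. The 1.77 belongs to banded 2 and banded 3, which by that noise would not have been averaged. In each of the 4 pairs the arrays were neighbours on the slide. Banded 1 with sham 2, and banded 4 with sham 1, resembled each other this closely across the surgery labels. Whether each array holds the sample that its label names was not tested. Every banded-minus-sham value, and every value from a fit with surgery in the model, rests on the labels.

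Gk was measured above background in every heart. All 20 spots were well above background on all 8 arrays, 160 of 160 spots, and 0 were saturated. The geometric mean processed signal of the unflagged Gk spots was 390 units in banded 1, 127 in banded 2, 121 in banded 3 and 223 in banded 4. It was 247 units in sham 1, 322 in sham 2, 248 in sham 3 and 308 in sham 4. Banded 1 thus had the highest Gk signal of the 8 hearts, and banded 2 and banded 3 the lowest. The lowest signal that still counted as well above background was 15.7 to 19.2 units, and the brightest of the 15 negative probes reached 8.87 to 19.8 units. The Gk mean was 12.97 to 19.7 times the brightest negative probe of its array in banded hearts and 15.8 to 19.3 times in sham hearts.

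The arrays differed in brightness, so each was centred on the 75th percentile of its own log2 signals. On that scale 0 means as bright as the 75th percentile, and a difference of 1 is a 2-fold change. The Gk level was 0.61 in banded 1, −0.31 in banded 2, −0.23 in banded 3 and 0.36 in banded 4. It was 0.48 in sham 1, 0.65 in sham 2, 0.41 in sham 3 and 0.60 in sham 4. Banded 2 and banded 3 lay below all other hearts, banded 1 lay within the sham range, and banded 4 lay just under the lowest sham heart. The banded and sham groups overlapped. Of 35684 tested probes measured on all 8 arrays, 2.1% had all 4 banded arrays below all 4 sham arrays and 1.23% had them above.

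**Figure D1:**
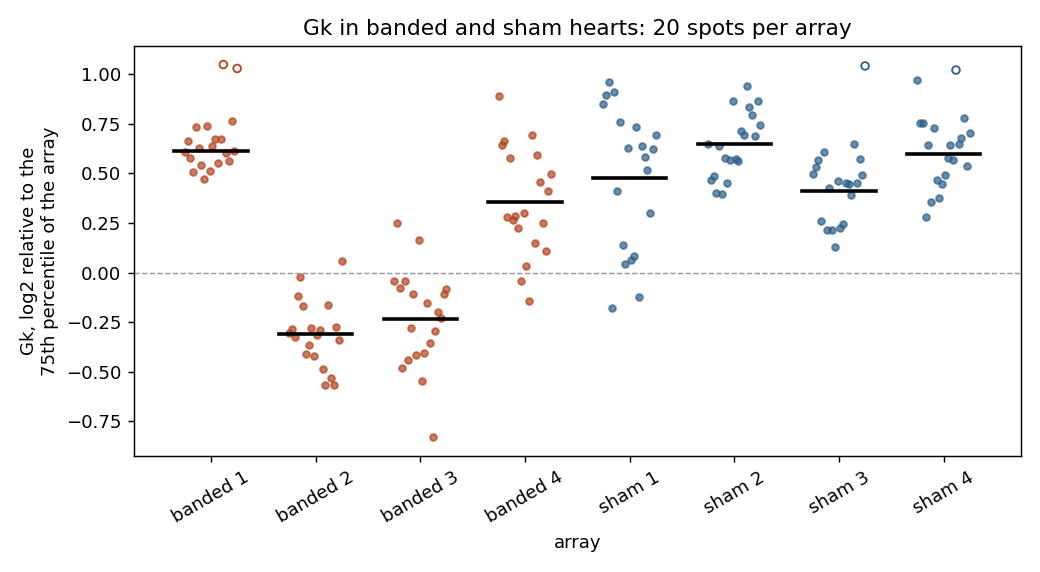
Level of Gk on each array, as log2 relative to the 75th percentile of the array, with banded hearts (orange) left of sham hearts (blue). Each point is 1 of the 20 spots, open points were marked as outliers and left out, and the black bar is the mean of the spots used; banded 2 (−0.31) and banded 3 (−0.23) lie apart from the other 6 arrays, which lie between 0.36 and 0.65.

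With close arrays counted once, the Gk level averaged 0.23 ± 0.46 in banded hearts and 0.54 ± 0.09 in sham hearts (SD, n = 3 each). The log2 difference was −0.31 with an SE of 0.25, a ratio of 0.807. The SD in the banded group is wider than the difference itself. Of the probes tested in the same fit, 0% passed an adjusted p of 0.05 between banded and sham hearts and 2.03% had an unadjusted p under 0.05 (limma). Whether fewer of the cells that hold Gk RNA or less of it per cell lay behind a lower value in RNA of the whole heart sample cannot be told apart.

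The banded value rested on the close arrays banded 2 and banded 3. Without these arrays the log2 difference was −0.06 with an SE of 0.19, a ratio of 0.961. Within the pair of banded 1 and sham 2 the Gk level differed by −0.03, and within the pair of banded 4 and sham 1 by −0.12. With neighbouring arrays of the slide paired as a block and all 8 counted separately, the difference was −0.08 with an SE of 0.11. Banded 2 with banded 3, and sham 3 with sham 4, are pairs of 1 surgery group and add nothing to that difference. It comes only from the within-pair values just given. Within slide row 1 the lone banded heart stood at 0.61, against a mean of 0.55 over 3 sham hearts. Within slide row 2 the mean of 3 banded hearts was −0.06, against 0.48 in the lone sham heart. The banded-minus-sham difference was thus 0.06 in row 1 and −0.54 in row 2.

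The gap of banded 2 and banded 3 to the rest was wide for a probe on this array. The nearest of the other 6 arrays, banded 4, was 0.59 log2 units (1.51-fold) above the higher of the pair. Over the 35684 probes, 13.6% had both of these arrays below the 6 others, and 18% had both above them. Both lay below by at least the gap seen for Gk in 1.1%. Gk was chosen by a banded-against-sham difference that rests on these arrays, so this share is a description and not a test. These 2 arrays also had the lowest 75th-percentile signals, 157 and 143 units, against 174 to 255 units on the others. Their 3′ over 5′ differences of the PGK1 control probes, which report on RNA integrity and labelling, were 4.53 and 4.51 log2 units, against 3.85 to 4.39 on the others. The same difference of the GAPDH control probes did not set both apart: it was 0.67 and 0.56, against 0.34 to 0.64 on the others. The 75th-percentile signal and the PGK1 difference also separated the slide rows without overlap. The signal was 143 to 178 units in row 2 and 187 to 255 units in row 1. The PGK1 difference was 4.39 to 4.53 in row 2 and 3.85 to 4.24 in row 1. The GAPDH difference of the rows overlapped. The part of brightness and RNA quality in the Gk level of banded 2 and banded 3, or of the rows, was not tested.

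**Figure D2:**
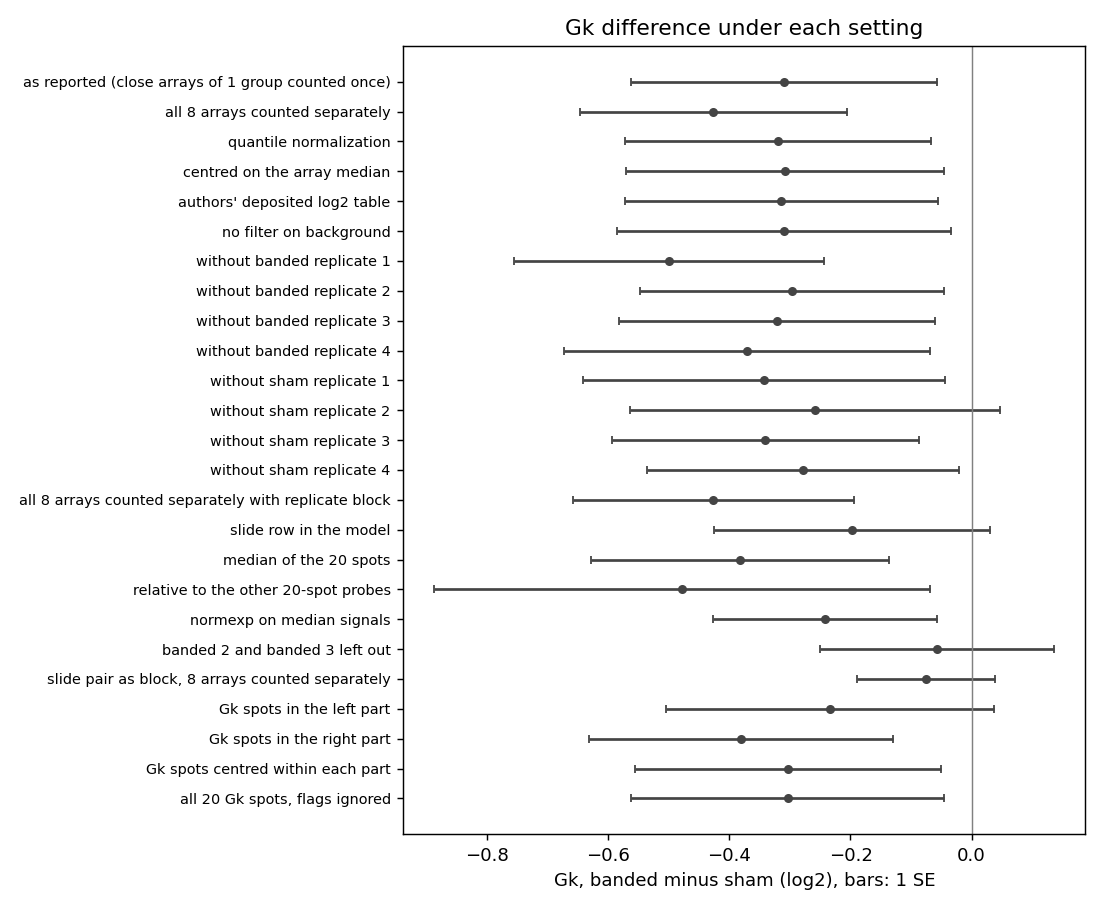
Log2 difference of Gk, banded minus sham, under each processing setting, with bars of 1 SE. The value as reported is −0.31, all settings lie below 0, and the smallest differences (−0.06 and −0.08) are those without banded 2 and banded 3 and with slide neighbours as a block.

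The Gk level by slide row is given as a description too, because the opposite course by which Gk was chosen runs over the same arrays. Row 2 held banded 2, 3 and 4 and sham 1, and row 1 held banded 1 and sham 2, 3 and 4. Row and surgery are thus told apart through 1 array on each side, banded 1 and sham 1. These are also arrays that closely resembled a neighbour of the other surgery group, sham 2 and banded 4. If their labels were wrong, row and surgery could not be told apart, so the row values with surgery in the model rest on the labels too. The Gk level averaged 0.07 over the 4 arrays of row 2 and 0.57 over the 4 arrays of row 1. With surgery in the model and close arrays of 1 surgery group counted once, the log2 difference was −0.34 with an SE of 0.23. With all 4 close pairs averaged, across surgery groups too, it was −0.21 with an SE of 0.37. Ldhal6b, a lactate dehydrogenase copy, had too little signal on all 8 arrays to be followed. Of the 13 other named genes, 12 had a value above 0 in the row fit, where 47.6% of all probes tested lay below 0. At an adjusted p of 0.05, 6 of the 13 passed, against 9.98% of all probes (limma). Of all probes 27.2% had an unadjusted p under 0.05. The course of these genes was part of the choice of Gk, so their counts are a description. Without banded 1, without sham 1, without sham 2 and with all 4 close pairs averaged, 0 of the 13 passed. The count over all probes was 3572 as reported, 516 without banded 1, 454 without sham 1, 1546 without sham 2 and 1138 with the 4 pairs averaged.

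The 20 copies of the Gk probe scattered more than those of the other genes. On each array the log2 signals of the unflagged Gk spots had an SD of 0.08 in banded 1, 0.17 in banded 2, 0.25 in banded 3 and 0.27 in banded 4. In sham hearts it was 0.36 in sham 1, 0.16 in sham 2, 0.15 in sham 3 and 0.17 in sham 4. The low SD of banded 1 leaves out its 2 brightest Gk spots, which were flagged. They stood at 1.05 and 1.03, against 0.47 to 0.76 for the spots used. The Gk copies were the most scattered of the 14 genes on all 8 arrays, and the other 13 genes had SDs from 0.027 to 0.126. G6pd2, a testis-expressed copy of the gene for glucose 6-phosphate dehydrogenase whose level lay between 0.08 and 0.42, had SDs from 0.060 to 0.126. The SE of the Gk mean that this scatter gives was 0.020 to 0.060 on banded arrays and 0.035 to 0.081 on sham arrays. It takes the spots as independent and covers technical scatter only.

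**Figure D3:**
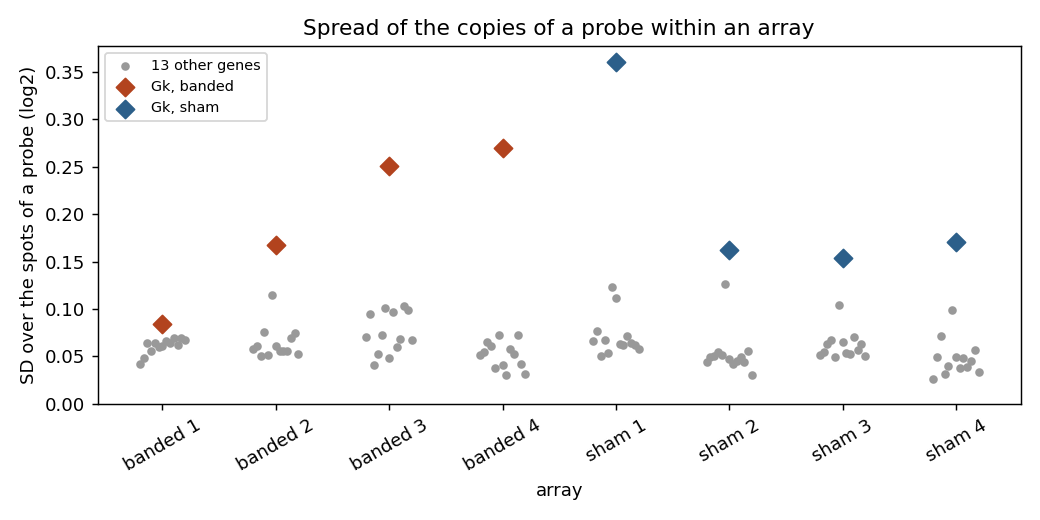
SD of the log2 signals over the copies of a probe on each array, for Gk (diamonds, orange for banded and blue for sham) and 13 other named genes (grey). Gk has the highest SD on all 8 arrays, from 0.08 in banded 1 to 0.36 in sham 1. Flagged spots were left out, among them the 2 brightest Gk spots of banded 1.

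On some arrays this scatter followed the column of the spot. The correlation of the Gk spots with column was 0.54 to 0.86 in banded 3, banded 4, sham 1, sham 3 and sham 4. It was −0.14 in banded 1, −0.04 in banded 2 and 0.18 in sham 2. The spots were split after column 82, in the middle of the array, and 10 of the 20 Gk spots lie to the right and 10 to the left. In sham 1 the Gk level was 0.75 over the right spots and 0.21 over the left spots, a difference of 0.54. The right-minus-left difference was −0.04 in banded 1, −0.12 in banded 2, 0.31 in banded 3 and 0.32 in banded 4. In the other sham hearts it was 0.09 in sham 2, 0.21 in sham 3 and 0.17 in sham 4. The right spots were thus brighter on 6 of 8 arrays. Flagged spots were left out of these values, and the 2 flagged spots of banded 1, its brightest, both lie on the left. Over the 13 other genes and 8 arrays the right-minus-left difference ran from −0.15 to 0.16. After each side was centred on its own 75th percentile, the Gk difference ran from −0.02 to 0.27 on banded arrays and from about 0 in sham 2 to 0.33 in sham 1.

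**Figure D4:**
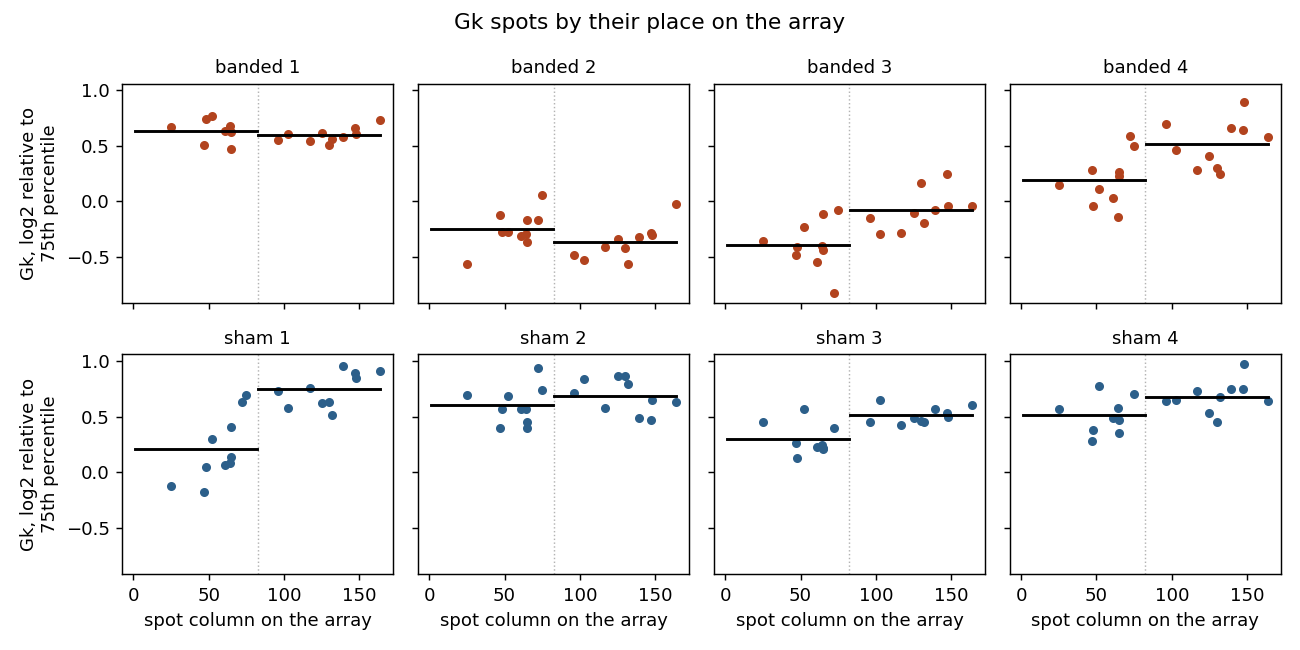
Gk level of each unflagged spot (log2 relative to the 75th percentile of the array) against its column on the array, with banded arrays in the upper row and sham arrays in the lower row. Black lines are the means of the left and right spots, split after column 82; in sham 1 the right spots lie 0.54 above the left ones, and in banded 1 the sides differ by −0.04.

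The place of the spots did not turn the direction of the difference between groups. From the right spots alone the banded-minus-sham difference was −0.38, from the left spots alone −0.23, and with each side centred on its own percentile −0.30. The 20 places are the same on every array, and at 20 of 20 the mean of the 4 banded arrays was below that of the 4 sham arrays, by −0.62 to −0.14. At 19 of 20 places banded 2 and banded 3 were both lower than the 6 other arrays. Flagged spots were included in these 2 counts. Spots on 1 array share its RNA, so these places are not separate samples. They repeat the contrast by which Gk was chosen and add no support to it.

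The course of Gk over the 8 arrays was set against that of the 13 other genes with signal, as a description, with Pearson's r over arrays that include the close pairs. Of the 13, 10 ran against Gk and 3 with it. Over all 35683 other probes 50.4% had a negative r. The most opposite was Gapdh, a glycolytic enzyme, with r = −0.94. Its level was 9.88 in banded 1, 10.55 in banded 2, 10.60 in banded 3 and 10.30 in banded 4, and 10.25, 10.01, 10.19 and 10.04 in sham 1 to sham 4. On this centred scale Gapdh was thus highest in banded 2 and banded 3, where Gk was lowest, and lowest in banded 1. Before centring this order did not hold. The log2 signal of Gapdh then ran only from 17.70 in sham 2 to 17.88 in banded 1, the array where Gk was highest too. After Gapdh, the most opposite on the centred scale were B2m with r = −0.87 and Tfrc with r = −0.86.

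The genes most like Gk were Tbp, the TATA-binding protein of the transcription machinery, with r = 0.87, then Nono, a nuclear RNA-binding protein, with r = 0.50, and G6pd2, with r = 0.21. Tbp stood at 1.64 in banded 1, 1.34 in banded 2, 1.43 in banded 3 and 1.59 in banded 4, and at 1.57, 1.61, 1.64 and 1.52 in sham 1 to sham 4. It was lowest in the same 2 hearts as Gk, by less. Within surgery groups, after each group mean was taken off, r was −0.93 for Gapdh, −0.85 for B2m, −0.83 for Tfrc, 0.85 for Tbp, 0.28 for Nono and 0.24 for G6pd2. Without banded 2 and banded 3, r over the 6 remaining arrays was −0.89 for Gapdh, −0.82 for B2m, −0.82 for Tfrc and −0.08 for Tbp. Nono and G6pd2 then had r = −0.65 and −0.52, so that none of these 3 ran with Gk over those arrays.

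**Figure D5:**
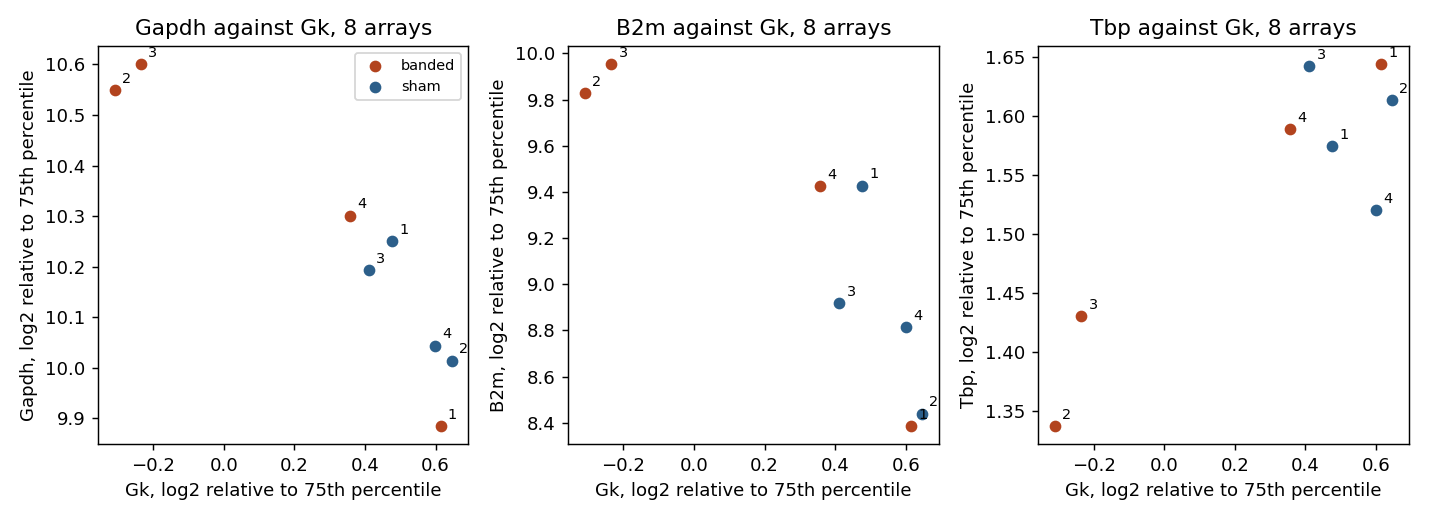
Levels of Gapdh, B2m and Tbp against that of Gk on the 8 arrays (log2 relative to the 75th percentile, orange for banded and blue for sham, numbered by mouse). Gapdh (r = −0.94) and B2m (r = −0.87) fall as Gk rises, and Tbp (r = 0.87) is lowest in banded 2 and banded 3.

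These courses depended in part on the scaling. With 4 other scalings (array median, quantile normalization, normexp and the authors' deposited table), again 10 genes ran against Gk and 3 with it. On unscaled log2 signals, 8 ran against it and 5 with it. B2m then had r = −0.87 and Tfrc r = −0.80, close to the scaled values, but Gapdh had r = −0.14, while Tbp had r = 0.97, Nono r = 0.98 and G6pd2 r = 0.91.

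Among all tested probes, 692 (1.94%) had r of at least 0.9 with Gk and 1134 (3.18%) had r of −0.9 or less. The most alike, ASMM10P008520 (r = 0.993) and ASMM10P054715 (r = 0.988), and the most opposite, ASMM10P020759 (r = −0.996) and ASMM10P019578 (r = −0.996), carry no gene name in the files. ASMM10P008520 was not well above background in banded 2 and banded 3, so its low levels there are only bounds. In banded 2 and banded 3, ASMM10P020759 stood at 0.90 and 0.75, against −0.48 to −0.12 on the other arrays. ASMM10P054715 stood at 1.26 and 1.22 there, against 1.58 to 1.79 on the other arrays. Both had signal well over background on every array.

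Against the other named genes, the Gk difference between banded and sham hearts was the lowest. Over the 13 genes the log2 difference had a median of 0.21 and ran from −0.05 to 0.32, with 10 above 0 and 3 below. The 3 below 0 were Tbp (−0.05), Nono (−0.04) and G6pd2 (−0.02). Over all probes tested the median was 0.01, with 48.3% below 0. These differences come from the contrast by which Gk was chosen and share the same arrays, so they describe these hearts only.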

How the data were processed

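Per the file headers, Agilent Feature Extraction 11.0.1.1 turned each spot into a processed intensity after background subtraction and spatial detrending; arrays were not scaled to each other. The flags for spots well above background, saturated or outlying are other values of 0 or 1 per the file headers. The authors' deposited table of log2 intensities served as an alternative; its making is not given in these sources, but its columns share a 75th percentile of 7.53 and an identical highest value of 18.3, and their medians were 4.92 each.

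Of 60930 noncontrol probes 15 negative ones were set aside. The log2 intensity was averaged over unflagged spots and centred on the 75th percentile of the array. Probes with most spots well above background on at least 4 arrays (35787) were fitted with limma 3.58.1 in R 4.3.3, two-sided, with Benjamini-Hochberg adjustment over all probes and a threshold of 0.05. The fit was tested on simulated data. Plots used Python 3.11.15 and matplotlib 3.10.9. Names came from a RefSeq table on GRCm38.p6; no probe coordinates or probe sequences are given. Slide places came from the file headers. The number of arrays limits the precision, and p-values measure the spread between these arrays.

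Gk and all lists were chosen with earlier results of these data known. Named genes are the 3 with the highest and the 3 with the lowest r with Gk, and at most 2 identifiers on each side. The row difference of Gk, planned as a test, is given without one. The files have no column of mean signals, so normexp (offset 50) used median signals. Deviations of same-numbered banded and sham arrays had correlations from −0.65 to −0.05. Same-numbered arrays lay in opposite slide rows, so these correlations cannot tell whether the numbers pair the mice. The reported fit takes the arrays as unpaired.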

Additional observations from a re-analysis of the deposited data

Results flagged for a closer look

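Dixon's test was run on 26 sets of 4 arrays and marked 2 of them; about 1 in 20 is marked by chance. The spread of the Gk copies was widest in sham 1, with an SD of 0.361, against 0.171 in the next sham array. The level of G6pd2 was highest in banded 4, at 0.378, against 0.133 in the next banded array.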

How the results depend on the processing

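The Gk difference between banded and sham hearts stayed below 0 under all 24 alternatives, from −0.50 to −0.06. All lay within 1 SD of hearts (0.33) of the reported −0.31. That SD is wider than the difference, so 0 would lie within it too, and this does not show that the difference is stable. Single arrays left out in turn moved the difference between −0.50 (banded 1 out) and −0.26 (sham 2 out). Banded 2 and banded 3 count as 1 sample, so leaving out 1 of them keeps the other. Without both the difference was −0.06. All 8 arrays counted separately gave −0.43 (SE 0.22), and the replicate block with 8 arrays also −0.43 (SE 0.23), with 0 probes called. The slide row in the model gave −0.20, the median of the spots −0.38, scaling to the other named genes −0.48 and normexp −0.24. The row difference of Gk stayed below 0 under all 22 alternatives. It was −0.88 when scaled to the other named genes, a contrast that the choice of Gk fixes and that is not read as a test, and −0.57 (without sham 1) to −0.10 (without banded 1) when 1 array was left out.

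Between banded and sham hearts 0 probes were called (limma, 726 at an unadjusted p under 0.05), and 0 when leaving out any 1 array; with the slide row in the model 1 was called. With all 8 arrays counted separately 2533 had an unadjusted p under 0.05, and with banded 2 and banded 3 left out 435. Between slide rows 3572 were called as reported, 959 with no filter on background, 5813 with normexp, 1138 with all 4 close pairs averaged, and 454 (without sham 1) to 3383 (without sham 3) when 1 array was left out, with 516 without banded 1 and 1546 without sham 2. The fit of averaged pairs has 4 samples and 1 residual degree of freedom. The cause of these shifts was not tested. Normexp, the left and right spots, the spots with flags ignored, the slide pair, the averaged pairs and the fit without banded 2 and banded 3 were chosen after seeing the data.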

Other observations

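The pattern of the 20 Gk spots over the array was itself alike on some arrays. Over the 20 places, with flagged spots included, r was 0.80 between banded 4 and sham 1, the highest of the array pairs. It was −0.33 between banded 1 and banded 3, the lowest. Between banded 2 and banded 3 it was −0.10. Spots of 1 array are not independent samples, and these correlations describe the arrays only.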
